A study of Mus musculus with 2 samples.

Results

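The cells described here are leukocytes that were sequenced together with steroid-producing cells of the mouse adrenal cortex. They were chosen by measured values. Barcodes had first to reach 1000 UMIs (unique molecular identifiers, counted RNA molecules) and 500 genes, with no more than 30% of UMIs from mitochondrial genes, to be kept as cells. A cell counted as a leukocyte when it held at least 1 UMI of at least 3 of the 9 genes Ptprc, Coro1a, Laptm5, Cd52, Tyrobp, Fcer1g, Cd74, Cd3e and Cd79a, and when Star made up under 1000 CPM (UMIs of a gene scaled to a fixed total) of the cell. Star carries cholesterol into mitochondria and is a mark of steroidogenic cells. Of 6904 kept cells, 158 were leukocytes, 85 of 4892 in library 1 and 73 of 2012 in library 2. They were set against 6149 cells with Star at or above 1000 CPM (4400 and 1749), called Star-high cells.

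The samples came from adrenal glands of male mice aged 15 weeks, labelled wild type, with SF1-Cre and Rosa mTmG. SF1-Cre is active where the steroidogenic factor SF1 (Nr5a1) is expressed, and Rosa mTmG is a reporter that makes membrane tdTomato before Cre recombination and membrane GFP after it. The study took 26 adrenals, and single cells that were negative for DAPI and positive for the DNA dye Vybrant DyeCycle Ruby were sorted. The series holds 1 group with 2 libraries, and nothing in the labels says which animals went into which, so that a difference between the libraries may be technical. Both libraries are labelled as steroidogenic cells of the SF1 lineage, and no gate on GFP is named there.

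Leukocytes fall into a myeloid branch (macrophages, monocytes, dendritic cells and neutrophils), which engulfs particles and starts inflammation, and a lymphoid branch (B, T and NK cells). Macrophages are known residents of the adrenal cortex, where they lie along the sinusoids and clear lipid and dying cells. Corticosterone made in the same gland acts on leukocytes through the glucocorticoid receptor Nr3c1, and Tsc22d3 (GILZ) is one of its best known target genes. The signalling chains of surface receptors also set the branches apart: Tyrobp and Fcer1g are adaptors of activating receptors in myeloid and NK cells, whereas Cd3e and Cd79a are the signalling chains of the T cell and B cell antigen receptors.

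Because the members were chosen on these very values, every comparison with Star-high cells, and every comparison between classes of leukocytes, is a description and carries no test. Levels are UMIs summed over a class of cells in a library, in CPM, and paired values are library 1 first and library 2 second. Each UMI stands for the 3′ end of 1 molecule, so a level does not grow with transcript length. Intervals are exact 95% intervals (Poisson for levels, Clopper-Pearson for shares) and cover counting error only. A gene was counted as higher or lower when its level differed at least 2-fold in the same direction in both libraries, among genes with at least 50 CPM in 1 of the classes in each library.

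Leukocytes made up 1.74% of kept cells in library 1 (interval 1.39% to 2.14%) and 3.63% in library 2 (2.86% to 4.54%), intervals that did not overlap. The gap in the rule genes was wide. Only 1 leukocyte had exactly 3 rule genes and 148 had 5 or more, with a median of 6 and at most 7, while of the cells under the Star limit 1 had 2 rule genes, 20 had 1 and 576 had none. On the Star axis, the highest leukocytes were at 860.4 and 753 CPM. The lowest cells with at least 3 rule genes but too much Star for a leukocyte stood at 1264 and 1271 CPM. There were 25 such cells (16 and 9), and they stayed in the Star-high class, whose levels of leukocyte genes therefore include theirs. Their median depths were 19503 and 16949 UMIs, close to those of all Star-high cells and several-fold above those of leukocytes. No Star UMI was found in 133 of the 158 leukocytes.

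**Figure D1:**
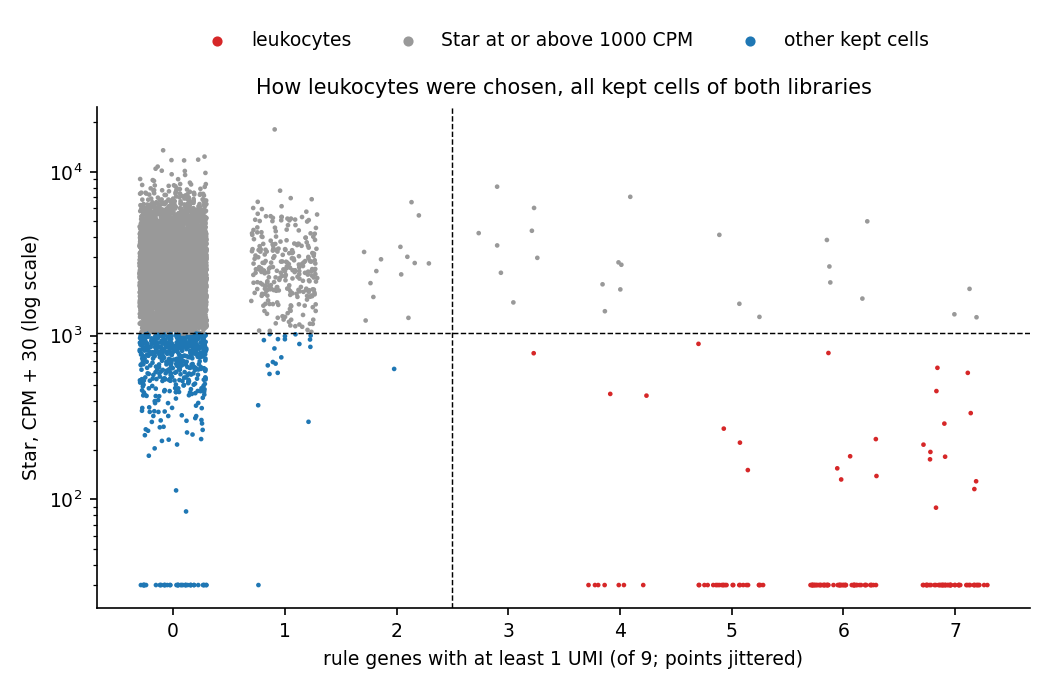
Each point is a kept cell of either library; the horizontal axis gives the number of rule genes with a UMI (jittered) and the vertical axis the cell's Star level in CPM plus 30, on a log scale. The dashed lines are the limits of the rule: Star-high cells (grey) lie above the horizontal line, other kept cells (blue) lower left and 158 leukocytes (red) lower right, where 133 leukocytes sit on the bottom line with no Star UMI.

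Leukocytes were shallow cells. Their median was 4860 UMIs and 1718 genes in library 1 and 4205 UMIs and 1776 genes in library 2, against 18788 and 15505 UMIs in Star-high cells. All leukocytes of a library together gave 505681 and 346577 UMIs, which puts the level of 3 UMIs, used as the floor below which a class was not read, at 5.93 and 8.66 CPM. Smaller classes had higher floors, 26.9 and 28.1 CPM in the lymphoid cells defined below. Values printed under the floor of a class are counts of fewer than 3 UMIs and are not readable as levels. The libraries held 92905273 and 28023733 UMIs in all, over 5040 and 2288 barcodes. They shared 4 barcode sequences, none of them a leukocyte's.

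The genes of the rule had the levels it asked for. Ptprc, the CD45 phosphatase of all nucleated blood cells, stood at 868 and 1498 CPM in leukocytes and 0.116 and 1.03 CPM in Star-high cells. Cd74, the invariant chain of MHC class II, was the most abundant rule gene at 13942 and 14741 CPM, against 10.9 and 4.46 CPM. Among Star-high cells, 95.1% carried no rule gene at all. Nr5a1, which names the lineage on the label, was at 23.7 and 2.88 CPM in leukocytes and 280.3 and 264 CPM in Star-high cells. The library 2 value in leukocytes was under the floor of 8.66 CPM. The leukocytes as a class thus went against the labelled cell type, although 1 cell described with the steroid genes had these at the level of Star-high cells.

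Between leukocytes and Star-high cells 4102 genes could be compared. Of these 748 (18.2%) were higher and 1167 (28.4%) were lower in leukocytes, and the median log2 ratio over all of them was -0.46 and -0.47. With median-of-ratios scaling, which takes out a shift of -0.42 from every log2 ratio, 927 were higher and 795 lower, so the surplus of lower genes depends on the scaling. The largest ratios by the naming rule belonged to products of cytotoxic cells, neutrophils and lymphocytes. Gzma, a granzyme that kills target cells, stood at 1230.0 and 1200.3 CPM against 0.0462 and 0 CPM. S100a8 and S100a9, which together form calprotectin in neutrophils, followed with S100a9 at 4894 and 3621 CPM against 0.0693 and 0.947 CPM. Other leading genes were AW112010, Ms4a4b, Trbc2, Nkg7, Pla2g7, Il1b, Retnlg, Srgn, Gimap3, Itgb2, Iglc1 and Slpi, each with at most 0.36 CPM in Star-high cells. Srgn, the core protein of secretory granules, was read in all clusters, at 684 and 848 CPM in leukocytes and 0.208 and 0.355 CPM in Star-high cells.

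Among the genes that were lower in leukocytes by the naming rule, Wnt4, a ligand of the adrenal cortex, was at 98.9 and 2.88 CPM (the latter under the floor) against 2243 and 1852 CPM in Star-high cells. Most Wnt4 UMIs of library 1 leukocytes lay in an unnamed cluster described further on, which was at 275.5 CPM in library 1 and 0 CPM in library 2. Fdx1, which passes electrons to mitochondrial steroid hydroxylases, was at 140.4 and 51.9 CPM against 3422 and 3316 CPM. Map1b, a microtubule-binding protein, had no UMI in leukocytes of either library and 161 and 203 CPM in Star-high cells, so it was at least 23.5-fold lower with the floor of 3 UMIs per library. Prlr, Vsnl1, Hsd3b6 (whose reads may be shared with its close copy Hsd3b1), Nfib, Rims2, Kcnn2, Slc27a3, Peg10, Tmem200a, Cdkn1c, Clu and Mpdz completed the list, with at most 37.6 CPM in leukocytes and between 126.5 and 821 CPM in Star-high cells.

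Steroid synthesis genes other than Star were read as a list of 15, of which 14 were lower in leukocytes against a background of 28.4%. Their summed level was 1800 and 470.3 CPM in leukocytes and 21036 and 20887 CPM in Star-high cells, log2 ratios of -3.55 and -5.47. Cyp11a1, which makes the first cut of cholesterol, was at 279 and 23.1 CPM against 3391 and 3655 CPM. In library 1 a single cell with 19758 UMIs held 404 of the 910 UMIs of the list (44.4%). This cell was the one with the highest Star level and lay in the lymphoid class, its own summed level was 20447 CPM, and without it the summed level in library 1 was 1041 CPM. It belonged to the unnamed cluster described further on, which held 733 of the 910 UMIs. That cluster was at 4389 CPM in library 1, with a median cell at 614 CPM, and at 562.6 CPM in library 2. The highest myeloid cell of library 1 was at 10884 CPM. No UMI of the list was found in 13 of 85 and 20 of 73 leukocytes.

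Markers of other adrenal cell types were at or near 0 in leukocytes. The chromaffin list (Th, Dbh, Chga, Chgb, Pnmt) had 1 UMI in all, with 4 of 5 genes at 0. The mesenchymal list had 9 UMIs, all in library 2, with Col1a1 and Lum at 0. The Schwann list had 4 UMIs and the endothelial list 36, the latter mostly from Pecam1 at 37.6 and 34.6 CPM, a gene that lymphocytes and platelets also carry. Mast cell markers Cpa3, Mcpt4, Tpsb2 and Ms4a2 were at 0, and the 51 UMIs of that list were mostly Cma1, at 245 and 184 CPM in NK-like cells, and Hdc, at 411 and 510.3 CPM in neutrophil-like cells (these classes are described further on). Haemoglobin and platelet genes summed to 119 and 0 CPM, below the 275 and 322 CPM of Star-high cells.

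The rule divides leukocytes by 2 gates. Cells with at least 2 of Tyrobp, Fcer1g, Csf1r and C1qa and no UMI of Cd3e or Cd79a were called myeloid, and cells with a UMI of Cd3e or Cd79a and at most 1 of those 4 genes lymphoid. This gave 103 myeloid cells (58 and 45), 52 lymphoid cells (26 and 26), 2 in both gates and 1 in neither. Myeloid cells were 68.2% of leukocytes in library 1 (57.2% to 77.9%) and 61.6% in library 2 (49.5% to 72.8%), and the intervals overlapped. Myeloid cells were deeper, with medians of 6402 and 5029 UMIs against 3040 and 3889 in lymphoid cells.

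Clustering the 158 leukocytes on their variable genes, with reporter features left out, gave 6 clusters, and names were given from marker lists with the clusters in view. They were macrophage-like (38 cells, 21 and 17), B-like (37, 21 and 16), NK-like (23, 14 and 9), neutrophil-like (20, 10 and 10) and T-like (14, 4 and 10), and 26 cells (15 and 11) stayed unnamed because their leading genes came from both the monocyte and the dendritic cell list. Every cluster held cells of both libraries. The myeloid gate took in 21 of the 23 NK-like cells, since NK cells also carry Tyrobp and Fcer1g. When Csf1r or C1qa was required as well, the myeloid share of leukocytes dropped from a mean of 64.9% to 39.8%.

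**Figure D2:**
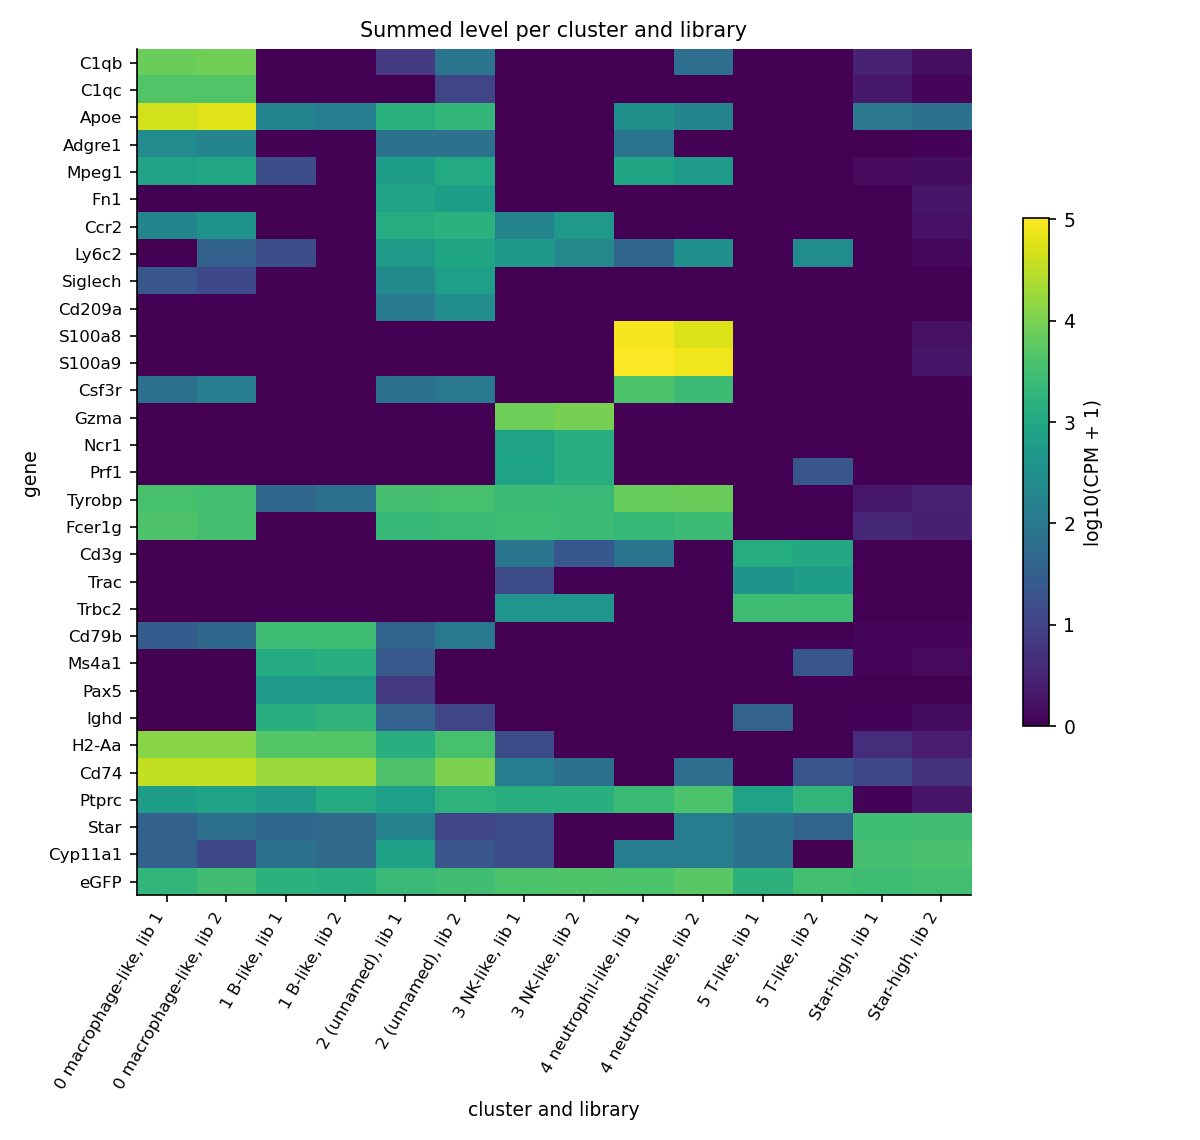
Heat map of summed levels, as log10 of CPM plus 1, for 31 genes in each leukocyte cluster and in Star-high cells, with the 2 libraries side by side. C1q genes mark cluster 0, Ighd and Pax5 cluster 1, Gzma and Ncr1 cluster 3, S100a8 and S100a9 cluster 4 and T cell receptor genes cluster 5, while Star and Cyp11a1 are high in the Star-high columns and eGFP is high in all columns.

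In the comparison of myeloid with lymphoid cells 3269 genes could be read, of which 477 (14.6%) were higher and 259 (7.92%) were lower in myeloid cells. The macrophage list had 12 of 13 genes higher, with Mertk under the level limit. Lyz2, lysozyme of phagocytes, stood at 14924 and 11998 CPM in myeloid and 8.98 and 9.35 CPM in lymphoid cells, the latter under the lymphoid floors of 26.9 and 28.1 CPM. C1qb, a chain of the first complement component, was at 2779.6 and 3048 CPM with no UMI in lymphoid cells, at least 103-fold higher with the floor. Within clusters C1qb was nearly confined to the macrophage-like cells, at 7490.0 and 8338 CPM against 5.99 and 92.1 CPM in the unnamed cluster.

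**Figure D3:**
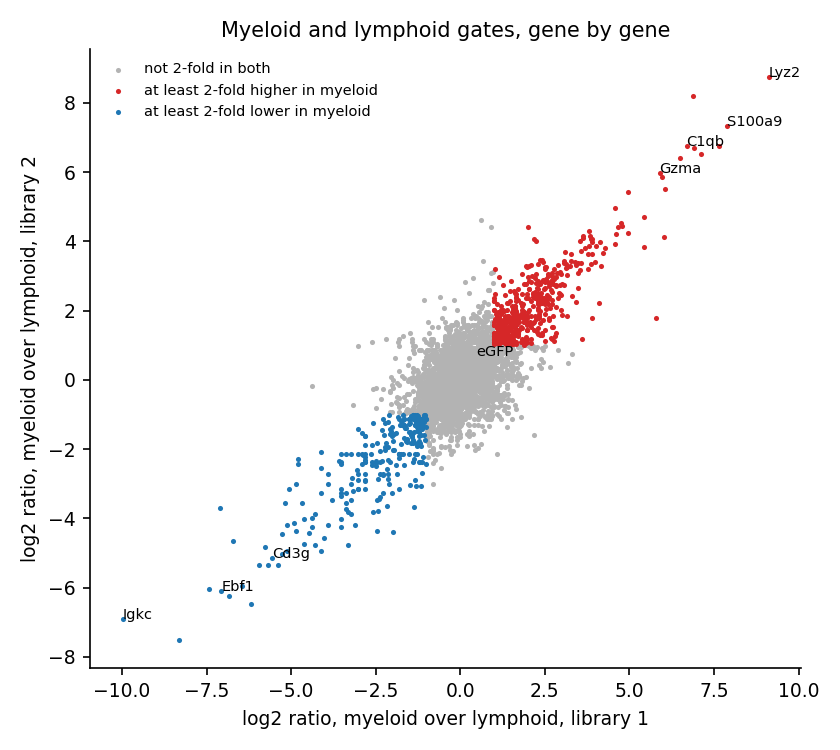
Each point is 1 of 3269 genes; the axes give its log2 ratio of myeloid over lymphoid level in library 1 and in library 2, with a floor of 3 UMIs per class and library. Red marks 477 genes at least 2-fold higher in both libraries and blue 259 genes at least 2-fold lower; Lyz2 stands at the upper end, Igkc at the left end, and eGFP lies among the grey genes that were not 2-fold different in both.

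Of 11 genes of long-lived resident macrophages, 6 had a UMI in the macrophage-like cells and 4 (Lyve1, Folr2, Timd4 and Cbr2) had none in any leukocyte. In the macrophage-like cells the level of 3 UMIs was 20.8 and 35.3 CPM, so lower levels of these 4 genes were not detectable. For the comparison of the gates 9 of the 11 were under the level limit, 1 was neither and 1 was higher in myeloid cells. These are too few genes to set against the background of 14.6%. The higher gene, F13a1 (a clotting factor chain of monocytes and macrophages), was at 563 and 532 CPM in the unnamed cluster and 0 and 23.6 CPM in the macrophage-like cells. Mrc1, the mannose receptor, was found in the macrophage-like cells at 118 and 200.2 CPM, Stab1, a scavenger receptor, at 298 and 153 CPM and Pf4, a chemokine, at 139 and 23.6 CPM.

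Apoe, which carries cholesterol out of cells, stood at 46667 and 58494 CPM in the macrophage-like cells and made up most of the lipid list's level there, and was at 1539 and 2097 CPM in the unnamed cluster. Of 14 genes for lipid handling, 8 were higher in myeloid than in lymphoid cells (background 14.6%) and none was lower (7.92%). Against Star-high cells 3 of the 14 were higher in leukocytes, 3 were neither and 8 were under the level limit. The background of 18.2% is a share of genes that could be compared. The 8 genes higher in myeloid cells were Trem2, Cd9, Lpl, Lgals3, Cd36, Apoe, Plin2 and Lipa. Trem2, a lipid receptor on macrophages, was at 409 and 389 CPM in the macrophage-like cells and 29.9 and 20.5 CPM in the unnamed cells. Lipa, the lysosomal lipase that frees cholesterol from its esters, was at 368 and 353 CPM in the macrophage-like cells and 112 and 121 CPM in Star-high cells. Plin2, which coats lipid droplets, did not set leukocytes apart from Star-high cells, at 115 and 118 CPM against 134 and 157 CPM. Lgals3, a lectin of phagocytes, was higher in the unnamed cluster (1683 and 1585 CPM) than in the macrophage-like cells (798 and 1413 CPM). Gpnmb had no UMI in leukocytes, and Spp1 and Fabp4 had none in the macrophage-like cells.

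All 6 MHC class II genes, which present antigen to helper T cells, were higher in leukocytes than in Star-high cells (background 18.2%). H2-Aa reached 12809 and 12954 CPM in the macrophage-like, 4639.5 and 4746 CPM in the B-like and 1467 and 3580.0 CPM in the unnamed cells, and at most 12.9 CPM in the NK-like, neutrophil-like and T-like cells. Between the gates H2-Ab1, H2-Eb1 and H2-DMb1 were higher in myeloid cells. Ciita, the master activator of class II genes, was at 82.3 and 115 CPM in myeloid and 179.5 and 131 CPM in lymphoid cells. The 6 MHC class I genes were all higher in leukocytes than in Star-high cells (background 18.2%) and none differed between the gates: B2m, the light chain of class I, stood at 1898 and 1532 CPM in leukocytes and 151 and 112 CPM in Star-high cells.

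The unnamed cluster carried monocyte genes beside a few dendritic ones. Of the 8 monocyte genes 6 were higher in myeloid than in lymphoid cells (background 14.6%). Ccr2, the receptor by which monocytes follow Ccl2 out of the marrow, was at 1239.6 and 1565 CPM in the unnamed cells and 201 and 365 CPM in the macrophage-like cells. Fn1, fibronectin, was read at 850.3 and 624 CPM in the unnamed cells and had no UMI in any other cluster. Siglech, a receptor of plasmacytoid dendritic cells, was at 239.5 and 655 CPM there, and Cd209a, a lectin of monocyte-derived and conventional dendritic cells, at 114 and 286 CPM. Xcr1, which marks cross-presenting dendritic cells, had no UMI. With a clustering resolution of 0.5, 22 of the 26 cells stayed together and 4 fell in a different cluster.

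Neutrophil-like cells were the shallowest, with medians of 2329 and 1565 UMIs. Of the 7 neutrophil genes 6 were higher in myeloid than in lymphoid cells (background 14.6%). S100a8 and S100a9 filled a large part of their RNA: S100a9 stood at 101638 and 80059 CPM and S100a8 at 85828 and 56201 CPM, and neither had a UMI in any other cluster. Cxcr2, the chemokine receptor that draws neutrophils into tissue, was at 2341 and 1531 CPM, and Retnlg at 8295 and 6826 CPM. Camp, a granule gene of immature neutrophils in the marrow, had 1 UMI in leukocytes of library 1 and none in library 2. Il1b, the inflammatory cytokine, was at 3244 and 4784 CPM in these cells and 486 and 353 CPM in the macrophage-like cells.

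NK-like cells gave the cytotoxic genes. Gzma was read at 8030.3 and 9587 CPM, the perforin gene Prf1 at 788 and 1452 CPM and the NK receptor Ncr1 at 762 and 1406 CPM. Ccl5, a chemokine of cytotoxic cells, was at 17519 and 7928 CPM and differed between the libraries by more than its counting error. Eomes and Tbx21, transcription factors of NK cells, were low at 155 and 92.2 and 90.4 and 254 CPM. Because most of these cells passed the myeloid gate, 8 of the 11 NK genes counted as higher in myeloid cells (background 14.6%), a count that reflects where the gate placed these cells. Cd3g, a chain of the T cell receptor complex, was at 90.4 and 23.1 CPM in NK-like and 1262 and 1062 CPM in T-like cells.

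All 14 B cell genes were lower in myeloid than in lymphoid cells against a background of 7.92%. Igkc, the kappa light chain, stood at 14816 and 15122 CPM in the B-like cells. Ighd, the heavy chain of IgD on naive B cells, was at 1399.5 and 1784 CPM and Ighm at 3939.8 and 3516 CPM. Jchain, which joins secreted antibodies in plasma cells, had no UMI in leukocytes, and Mzb1 was at 349.9 and 277 CPM. Fcmr, Cd55 and Siglecg, surface proteins of resting B cells, had 806 and 953, 715 and 883 and 502 and 762 CPM. Pax5, the factor that holds B cell identity, was at 502 and 519.7 CPM. Iglc1 and Iglc2 are near-identical lambda chains, and their reads may be shared.

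T-like cells were few, 4 in library 1 and 10 in library 2. Of 16 T cell genes 11 were lower in myeloid than in lymphoid cells (background 7.92%). Trac, the constant part of the alpha chain, was at 371 and 637 CPM and Trbc2, whose reads may be shared with Trbc1, at 2821 and 2803 CPM. Both Cd8b1 and Cd4 were read, Cd8b1 at 148 and 531 CPM and Cd4 at 186 and 63.7 CPM. Of 11 genes of lymphocyte recirculation and residency, 7 were lower (background 7.92%) and Cd44 was higher in myeloid than in lymphoid cells. Of those tied to passage through lymph nodes, Ccr7 was at 223 and 467 CPM in T-like cells, Lef1 at 371 and 637 CPM and S1pr1, the exit receptor, at 334 and 318 CPM. Itgae, an integrin of tissue-resident T cells, had 1 UMI in all leukocytes. Of the other residency genes of the list, Cd69 was at 0 and 212 CPM in T-like cells, and Cxcr6 was at 0 and 42.5 CPM there and 129 and 276 CPM in NK-like cells. Trdc, the delta chain, had 0 and 616 CPM and so appeared in T-like cells of library 2 only, among 4 T-like cells in library 1.

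Spi1 encodes PU.1, which is needed for myeloid and B cell development, and stood at 499 and 509 CPM in myeloid, 98.8 and 74.8 CPM in lymphoid and 0.173 and 0.237 CPM in Star-high cells. By cluster it was at 944 and 1276 CPM in neutrophil-like, 541 and 612 CPM in macrophage-like, 551 and 501 CPM in the unnamed, 198 and 139 CPM in B-like, 12.9 and 0 CPM in NK-like and 0 and 0 CPM in T-like cells. The NK-like cells, most of which lie in the myeloid gate, were thus below the B-like cells of the lymphoid gate. Ebf1, the early B cell factor, was at 0 and 4.25 CPM in myeloid and 1032 and 869.7 CPM in lymphoid cells, and had 33.4 and 29.1 CPM in Star-high cells.

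Promoter sequences of the genes that differed between the gates were searched for letters these factors are known to bind. The windows ran from 250 bases before to 50 bases after the gene start (RefSeq, GRCm38.p6), 1 promoter per gene, and both strands were read. The PU.1 letters GAGGAAGT, which hold the GGAA core shared by all ETS factors, were found in 30 of 375 promoters (8%) of genes higher in myeloid cells and in 10 of 199 (5.03%) of genes lower there. They were in 3.28% of 27025 promoters of all genes and in 4.30% of 2604 promoters of genes that could be compared. The EBF1 letters TCCCNNGGGA were in 7 of 199 promoters (3.52%) of genes lower in myeloid cells, 1 of 375 (0.267%) of genes higher there and 0.914% of all promoters. A match of letters describes the window and does not show that the factor was bound.

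Stretches around a match are shown for 5 genes higher in myeloid cells and 3 genes lower there, with the matched letters in capitals on the strand of the gene, so that an inverted match reads ACTTCCTC. They were picked after their levels were seen, among matches that overlap no gene or exon of GENCODE vM21 and end before the gene start.
S100a8, chr3:90668879-90668926, plus strand: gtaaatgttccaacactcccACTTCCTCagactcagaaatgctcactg
C1qc, chr4:136893082-136893129, minus strand: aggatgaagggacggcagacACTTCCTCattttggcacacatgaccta
Ctsc, chr7:88277914-88277961, plus strand: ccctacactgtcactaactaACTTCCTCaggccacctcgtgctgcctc
Mmp12, chr9:7344289-7344336, plus strand: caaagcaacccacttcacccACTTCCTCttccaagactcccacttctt
Pirb, chr7:3720475-3720522, minus strand: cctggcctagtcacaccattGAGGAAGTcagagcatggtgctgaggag
Gimap6, chr6:48708408-48708457, minus strand: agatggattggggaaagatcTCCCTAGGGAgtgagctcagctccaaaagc
Foxo1, chr3:52268225-52268274, plus strand: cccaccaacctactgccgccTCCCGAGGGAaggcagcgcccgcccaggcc
Chst3, chr10:60219429-60219478, minus strand: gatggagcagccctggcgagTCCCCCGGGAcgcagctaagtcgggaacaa
The match began 172 bases before the gene start in S100a8, 195 in C1qc, 151 in Ctsc, 88 in Mmp12 and 120 in Pirb. It began 193 bases before the start in Gimap6, 92 in Foxo1 and 198 in Chst3.

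These genes differed widely in level. Ctsc, which activates the granule proteases of leukocytes, was at 599 and 959.5 CPM in myeloid and 89.8 and 122 CPM in lymphoid cells. Mmp12, the macrophage elastase, was at 208 and 187 CPM in myeloid cells with no UMI in lymphoid cells, and Pirb, an inhibitory receptor, was at 190.3 and 246 CPM against 0 and 37.4 CPM. Gimap6, a lymphocyte GTPase, was at 116 and 93.4 CPM in myeloid and 512 and 683 CPM in lymphoid cells. Foxo1, which restrains growth in resting lymphocytes, was at 25.7 and 12.7 CPM against 89.8 and 112 CPM.

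Glucocorticoid response genes were read as a list of 13, since the cells came from a gland that makes corticosterone. The list also holds the receptors Nr3c1 and Nr3c2 and the enzyme gene Hsd11b1, so its sums and counts are not of response genes alone. Their summed level was 886 and 1146 CPM in leukocytes and 347 and 459.8 CPM in Star-high cells, log2 ratios of 1.35 and 1.32. Of these 5 were higher (Nr3c1, Tsc22d3, Dusp1, Zfp36 and Anxa1), Klf9 was lower, Sgk1 was neither and 6 were under the level limit, where 18.2% of all genes compared were higher and 28.4% lower. Tsc22d3 stood at 386 and 449 CPM in lymphoid, 167 and 272 CPM in myeloid and 33.7 and 42.8 CPM in Star-high cells. By cluster it was at 575 and 510.3 CPM in neutrophil-like, 502 and 554 CPM in B-like and 90.4 and 46.1 CPM in NK-like cells. The receptor Nr3c1 was at 79.1 and 107 CPM in leukocytes and 19.7 and 30.3 CPM in Star-high cells.

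The other members of the list differed in direction. Fkbp5, a chaperone that dampens the receptor, was at 35.6 and 49.0 CPM in leukocytes and 37.1 and 65.7 CPM in Star-high cells, and Klf9 at 21.8 and 17.3 against 131 and 137 CPM. Dusp1, a phosphatase of stress kinases, was highest in neutrophil-like cells at 1519 and 1531 CPM, and Zfp36, which destabilises cytokine messages, was highest there at 904 and 1531 CPM. Anxa1, a protein that curbs inflammation, was at 821 and 1850.0 CPM in neutrophil-like, 311 and 338 CPM in the unnamed and 6.93 and 11.8 CPM in macrophage-like cells. Early response genes were high in the same cells: Fos was at 821 and 1403 CPM and Junb at 1478 and 3317 CPM in neutrophil-like cells, and their part in the list's level was not tested. When cells under 2000 UMIs were left out, which removes all 10 neutrophil-like cells of library 2 (the deepest had 1922 UMIs), the mean log2 ratio of the list went from 1.34 to 1.15.

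**Figure D4:**
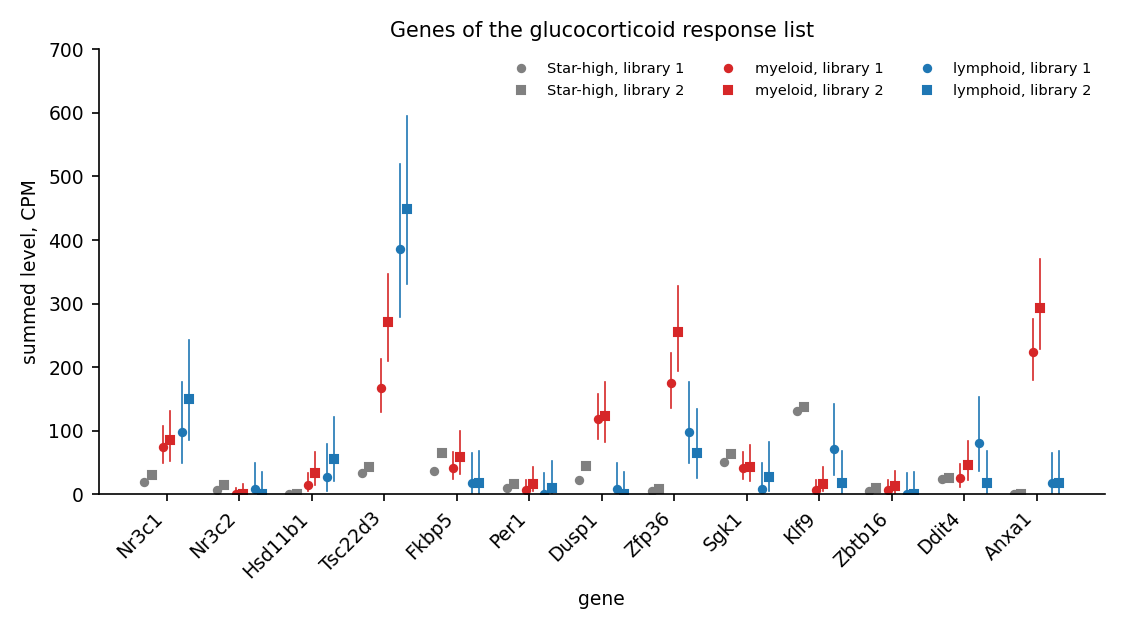
Levels in CPM of the 13 genes of the glucocorticoid response list, receptors included, in Star-high (grey), myeloid (red) and lymphoid (blue) cells, with library 1 as circles and library 2 as squares. Vertical lines are exact 95% Poisson intervals. Tsc22d3 is highest in lymphoid cells, Anxa1, Zfp36 and Dusp1 in myeloid cells, and Klf9 in Star-high cells.

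Of 11 chemokines on a list that does not hold Ccl5, Ccl3, Ccl4 and Cxcl16 were higher in leukocytes than in Star-high cells (background 18.2%), and 8 were under the level limit. Cxcl16, a membrane-bound chemokine and scavenger receptor, was read in macrophage-like cells at 818 and 495 CPM and in no other cluster. Ccl4 was at 775 and 1383 CPM in NK-like and 388 and 106 CPM in macrophage-like cells. Of 13 cytokines and growth factors 11 were under the level limit. The 2 that could be compared (Il1b and Tgfb1) were higher in leukocytes, too few genes to set against the background of 18.2%. Il6 and Il10 had no UMI in leukocytes. Of 8 interferon genes 3 were higher in leukocytes (background 18.2%), 2 were neither and 3 were under the level limit. Among the higher ones Ifi27l2a, an interferon-induced gene, was at 933 and 672 CPM against 33.3 and 22.5 CPM. Of 11 genes of signalling from activating and antigen receptors, those of myeloid and NK cells included, 7 were higher (background 18.2%). Among them was Syk at 132 and 141 against 0.370 and 0.197 CPM. By cluster Syk was at 411 and 383 CPM in neutrophil-like, 319 and 346 CPM in B-like and 0 and 0 CPM in T-like cells. Cell cycle genes were low, and Cdk1, Birc5 and Rrm2 had no UMI in leukocytes.

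The reporter was read in leukocytes at nearly the level of the cortex. eGFP stood at 2440.3 CPM in library 1 (2306 to 2580.3) and 3009 CPM in library 2 (2830 to 3198) in leukocytes, and at 2875 (2864 to 2887) and 3088 (3066 to 3109) CPM in Star-high cells. The log2 ratios were -0.24 and -0.04. Under median-of-ratios scaling the mean log2 ratio turned from -0.14 to 0.28. Neither the gates nor the clustering used the reporter features. The Cre transgene had 1 UMI in leukocytes, against 49.4 and 65.1 CPM in Star-high cells. That UMI was in the library 1 cell with 19758 UMIs described with the steroid genes, and no other leukocyte had one. The bGH feature of the reference, whose sequence is not described in the sources used here, was at 316 and 413 CPM in leukocytes and 428 and 479 CPM in Star-high cells. TdTomato had 2 UMIs in all kept cells, 1 of them in a leukocyte.

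Single leukocytes did not share the reporter evenly. Of 158 leukocytes 137 had an eGFP UMI (86.7%, interval 80.4% to 91.6%) and 21 had none, whereas 23 of 6149 Star-high cells had none (0.374%). The 21 cells without eGFP were all macrophage-like or B-like: 9 of 38 macrophage-like cells (6 of 21 and 3 of 17) and 12 of 37 B-like cells (5 of 21 and 7 of 16). All 26 unnamed, 23 NK-like, 20 neutrophil-like and 14 T-like cells had at least 1 eGFP UMI, which with so few cells still allows shares without eGFP of up to 13.2%, 14.8%, 16.8% and 23.2% (upper ends of the intervals). The lowest single-cell level was 986 CPM in the unnamed cells, 1521 CPM in NK-like, 1143 CPM in neutrophil-like and 819 CPM in T-like cells. The bGH feature split the same way: the 21 cells had 1 bGH UMI in 76204 UMIs (13.1 CPM), while the eGFP-bearing cells of those 2 clusters had 326 CPM. The part of free eGFP RNA in the droplets was not tested.

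Depth differed between cells with and without eGFP, and its part was not tested. B-like cells without eGFP were deeper (median 4194 UMIs) than those with it (2996), macrophage-like cells without it were shallower (2605 against 6766), and the neutrophil-like cells, at a median of 1944 UMIs, all had it. With every cell thinned to 1000 UMIs, an eGFP UMI was left in 68.4% of macrophage-like, 62.2% of B-like, 88.5% of unnamed, 78.6% of T-like and all NK-like and neutrophil-like cells, and in 88.7% of Star-high cells. The summed eGFP level was lowest in B-like cells, at 1552 and 1386 CPM, and highest in neutrophil-like cells, at 3942 and 5358 CPM. NK-like cells stood between at 3796 and 4217 CPM. This pattern was noticed in the data and was not tested.

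**Figure D5:**
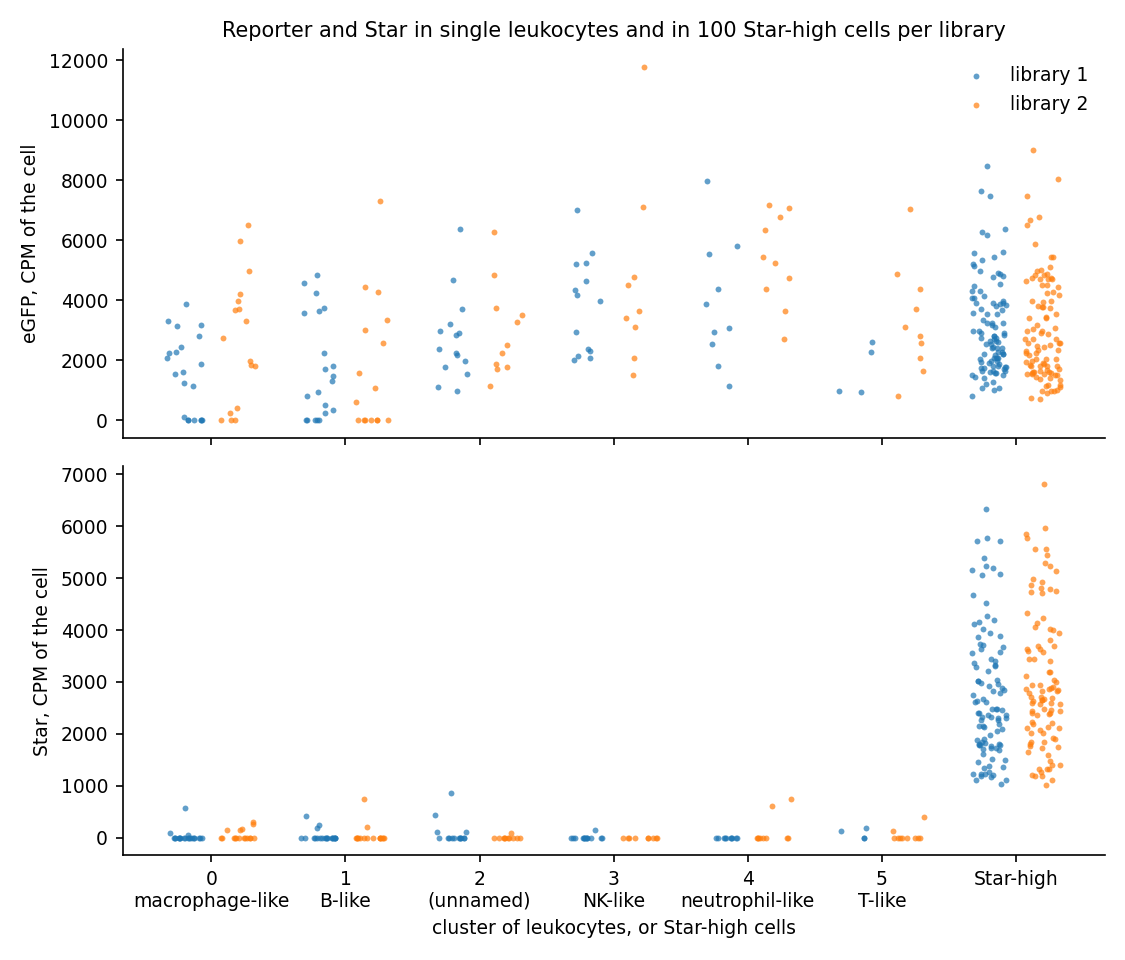
Level of eGFP (top) and of Star (bottom) in CPM for each leukocyte by cluster and for 100 randomly drawn Star-high cells per library, with library 1 in blue and library 2 in orange. Cells on the zero line of the top panel appear only in the macrophage-like and B-like clusters (9 and 12 cells), while in the bottom panel no leukocyte exceeds 860.4 CPM.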

How the data were processed

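Single-cell 3′ RNA libraries were made with 10x chemistry, and the authors deposited raw UMI counts per gene and barcode. Per the submitters' processing notes these came from Cell Ranger on mm10, and per the file headers from software version 3.1.0. Counts were filtered and summed per library and class as CPM, and no test was run. Ratios used a floor of 3 UMIs per class and library. Members and gene lists were chosen with earlier results of these data known, and cluster names were given with marker levels in view. Genes named in each direction were the 15 with the largest ratio, taking the smaller of the 2 libraries, among genes of at least 100 CPM in the higher class. Rule genes, gene-model names, mitochondrial and reporter features were left out of these. List genes with the highest or most different levels, at most 8 per list, were named too, and genes and promoter windows outside this rule were chosen after their values were seen. Leukocytes were clustered with scanpy 1.11.5 and leidenalg 0.10.2 (Python 3.11.15; 1500 variable genes, 20 components, 15 neighbours, resolution 1, seed 1). Doublets were kept, and removing high doublet scores was an alternative. The fold calculation was tested on simulated data. Depth per library is given with the results, and intervals cover counting error only. Some genes of the lists are not reported here.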

Additional observations from a re-analysis of the deposited data

Results flagged for a closer look

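Among the 424 barcodes that failed a filter, 12 (2.83%, interval 1.47% to 4.89%) carried at least 3 rule genes with Star under 1000 CPM. They are signal in barcodes that no comparison used. All 12 were under the UMI or gene minimum, 3 in library 1 and 9 in library 2, with median depths of 822 and 884 UMIs. At least 2 of the 4 myeloid genes were read in 2 of the 3 and 8 of the 9.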

How the results depend on the processing

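Of 105 alternative values, 86 stayed within the spread between libraries or within 1.5 times the main count, and 19 moved. For shares and log2 ratios, leaving out 1 library could not count as a move, because either library alone always lies within that spread. The leukocyte share, for example, went from a mean of 2.68% to 3.63% without library 1 and 1.74% without library 2. Classes were compared within each library, so every ratio was paired by library, and no test was run. The mean log2 ratio of the glucocorticoid list (1.34) was 1.15 with at least 2000 UMIs per cell, 1.76 with median-of-ratios scaling and 1.76 as a mean of per-cell CPM. The eGFP ratio (-0.14) was 0.28 with median-of-ratios scaling. With Csf1r or C1qa required, the myeloid share (64.9%) was 39.8% and 396 genes, not 259, were lower in myeloid cells. With a 20 CPM minimum, 1262 genes were higher and 1992 lower in leukocytes, and 395 lower in myeloid cells. With no level filter these were 1731, 2265 and 395. At 4-fold, 517 genes were lower in leukocytes, 170 higher in myeloid cells and 111 lower there. From a single library, which needs no second library to match, 763 to 832 genes were higher and 716 to 817 lower in myeloid cells. The cause of the other moves was not tested. With 158 shallow cells, a gene under 5.93 and 8.66 CPM in leukocytes was not readable, and levels in the 4 T-like cells of library 1 rest on 26945 UMIs. Removing 234 cells by doublet score took out 2 leukocytes. At resolution 1.5 the NK-like cells split, with 12 of 23 in the larger piece. Alternatives added after seeing the data were the inclusion of barcodes that failed a filter and thinning of eGFP to 1000 UMIs per cell.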
